A study of Homo sapiens with 6 samples.

Results

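Expressed antisense noncoding RNAs were described here across buffer-treated and Amuc_0904-treated SW480 cells. They are the genes whose symbol ends in -AS and a number and that reached at least 1 TPM (a share of the library's transcripts, scaled by transcript length) in at least 3 of the 6 libraries. Of 1538 genes with such a symbol among 60664 in the table, 324 met this level, while 541 were listed at 0 in every library. Members were thus chosen by these TPM values, so their being expressed is not a result. SW480, a human colorectal adenocarcinoma cell line, is labelled wild type, and RNA came from 3 libraries given buffer and 3 given Amuc_0904. Locus tags of Akkermansia muciniphila, a gut bacterium, are written like this name. Dose, exposure time and strand protocol are not given in the sources used here. The labels do not say whether replicates were separate cultures, so p-values measure only the spread between these libraries.

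A natural antisense RNA is transcribed from the strand opposite another gene, the sense gene, after which it is named. Some start beside the sense promoter and run away from it, others run into the end of the sense gene or lie inside it. Known examples act on the sense gene at its chromatin, on its splicing or on the stability of its mRNA, and others act elsewhere in the cell or host small RNAs. For most of the members no function is established.

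The geometry of the pairs and their start regions are shown first, because reads of overlapping genes on opposite strands can be told apart only in a stranded library. The table held the sense gene of 317 members, and the other 7 were named after a gene cluster or a symbol not in the table, such as HOXB-AS3. In GENCODE 29 on GRCh38, 138 members overlapped the sense gene head to head, with the 5′ ends overlapping, and 66 overlapped it tail to tail. Another 54 lay inside the sense gene, 25 contained it, 30 were divergent without overlap and 4 convergent without overlap. Exon bases were shared with a gene on the other strand in 258 of the 324 members, and a median of 9.48% of a member's exon bases was shared. In 32 members over 50% was shared.

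RefSeq promoter windows on GRCh38.p14, from 250 bases before to 50 after the start, were held for 240 of the members. Their median GC content was 64.3% with 23 CpG dinucleotides, against 65.7% and 26 for 10248 windows of tested genes and 58.3% and 14 for all 27305 windows. TATAAA on either strand was in 3.75% of the members' windows, 5.37% of those of tested genes and 11.95% of all windows. CCAAT on either strand was in 31.7%, 36.6% and 35.7%. In 48 of 202 pairs with both windows on opposite strands, the RefSeq starts lay within 300 bases of each other, and in 97 within 1000 bases. For these windows the base content was thus close to that of tested genes at large. The windows below belong to 4 members described further on and are written 5′ to 3′ on the member's strand with CpG in capitals. UGDH-AS1 is shown without the stretch annotated as UTR.
UGDH-AS1, chr4:39527619-39527798, plus strand: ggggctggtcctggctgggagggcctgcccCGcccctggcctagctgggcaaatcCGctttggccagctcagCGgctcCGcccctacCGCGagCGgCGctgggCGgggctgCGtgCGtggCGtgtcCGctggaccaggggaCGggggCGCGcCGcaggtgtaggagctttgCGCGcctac
ASB16-AS1, chr17:44186668-44186967, minus strand: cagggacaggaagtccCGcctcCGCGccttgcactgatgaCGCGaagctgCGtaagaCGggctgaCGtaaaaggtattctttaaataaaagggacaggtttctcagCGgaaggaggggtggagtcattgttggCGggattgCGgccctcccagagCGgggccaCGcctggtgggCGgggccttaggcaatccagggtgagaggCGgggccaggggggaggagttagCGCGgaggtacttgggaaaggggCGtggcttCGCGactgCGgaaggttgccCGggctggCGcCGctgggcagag
SLC9A3-AS1, chr5:472986-473285, plus strand: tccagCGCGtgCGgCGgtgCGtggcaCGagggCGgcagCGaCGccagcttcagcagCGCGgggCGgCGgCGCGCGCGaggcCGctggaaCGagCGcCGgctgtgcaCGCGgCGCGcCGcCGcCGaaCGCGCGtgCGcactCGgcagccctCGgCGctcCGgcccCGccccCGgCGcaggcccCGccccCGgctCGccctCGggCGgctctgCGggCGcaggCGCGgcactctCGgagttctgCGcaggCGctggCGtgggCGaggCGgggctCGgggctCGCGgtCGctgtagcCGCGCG
ELFN1-AS1, chr7:1742261-1742560, minus strand: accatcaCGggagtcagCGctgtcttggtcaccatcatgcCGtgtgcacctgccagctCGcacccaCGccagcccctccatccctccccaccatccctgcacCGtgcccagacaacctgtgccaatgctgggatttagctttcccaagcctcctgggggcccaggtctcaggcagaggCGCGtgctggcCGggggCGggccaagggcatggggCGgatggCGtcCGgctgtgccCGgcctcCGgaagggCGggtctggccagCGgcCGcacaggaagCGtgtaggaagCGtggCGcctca
UGDH-AS1 was higher and ASB16-AS1 and SLC9A3-AS1 were lower in treated libraries, and ELFN1-AS1, inside ELFN1, is among those most above their sense gene in the pairs with both genes tested. All 4 windows were GC rich, at 75.6% over the 180 bases shown for UGDH-AS1, and 64.3%, 82.3% and 69.0% for the others. SLC9A3-AS1 had 61 CpG in 300 bases, ASB16-AS1 24, ELFN1-AS1 21, and the UGDH-AS1 stretch 19. None held TATAAA and only ELFN1-AS1 held CCAAT, on either strand of its whole window.

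Between 14244 and 14586 genes per library had at least 1 TPM, and depth is unknown, since read numbers cannot be had from TPM. Of the epithelial markers, 6 of 8 were expressed, and VIL1 and KRT20, markers of differentiated cells, did not exceed 1.09 TPM. The summed epithelial markers were at 7907 to 8148 TPM in buffer and 7092 to 7380 TPM in treated libraries, groups that did not overlap. Among them CDH1, the gene of E-cadherin, fell from 7.01 to 3.80 TPM (log2 fold change -0.73, limma adjusted p = 0.044), and the intestinal transcription factor gene CDX2 was at 28.0 and 18.7 TPM (limma adjusted p = 0.077). PTPRC (leukocytes), DCN (fibroblasts) and STMN2 (neurons) were listed at 0 in every library. Other markers of those lists were not, with COL1A1 (fibroblasts) at 1.28 to 3.16 TPM and SNAP25 (neurons) at 2.12 to 3.12 TPM except for 8.56 TPM in Amuc_0904 replicate 3. The 3 endothelial markers summed to at most 0.80 TPM. The summed leukocyte markers, mostly CD68 and CD14, were at 2.88 to 3.46 TPM in buffer and 4.37 to 4.99 TPM in treated libraries. CD68 had a log2 fold change of 0.67 (limma adjusted p = 0.077) and CD14 of 0.075 (limma adjusted p = 0.86). PTPRC, CD3E and CD79A did not exceed 0.44 TPM. Relative to the mean library, log2 values had slopes of 0.0045, 0.093 and 0.054 per 10 percentage points of transcript GC content in buffer replicates 1 to 3. The same slopes were -0.042, 0.0021 and -0.11 in Amuc_0904 replicates 1 to 3, so the groups did not overlap. Their part in the differences below was not tested except where values after removal of the GC trend are given.

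Most members were present at a low level. The median of their mean TPM was 3.34, against 12.04 for all 14421 tested genes, and 105 members had a mean below 2 TPM while 18 exceeded 20 TPM. Of the members, 251 reached 1 TPM in all 6 libraries and 21 in exactly 3. ZNF566-AS1, SIGLEC10-AS1 and PROX1-AS1 were just inside the limit, with third-highest values of 1, 1.01 and 1.01 TPM. YEATS2-AS1 and SLC7A14-AS1 were just outside it, at 0.99 and 0.97 TPM. All members together summed to 2144, 2138 and 2148 TPM in buffer and 2045, 2080 and 2058 TPM in treated libraries. That is 0.215% to 0.216% of the listed TPM in buffer libraries and 0.205% to 0.209% in treated libraries, groups that did not overlap. The median log2(TPM + 1) of all tested genes was 3.75, 3.77 and 3.69 in buffer and 3.63, 3.64 and 3.70 in treated libraries. How far such a shift over all genes enters the members' sum was not tested, so the sum is not a result particular to antisense RNAs. In bulk RNA, fewer cells of a type and less RNA per cell cannot be told apart.

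The most abundant member was HOXB-AS3, from the HOXB cluster of homeobox genes, which is reported to encode a small peptide in colon cancer cells. It was at 126, 121 and 134 TPM in buffer and 141, 137 and 128 TPM in treated libraries, and these ranges overlap. IGFL2-AS1 followed with 89.8, 77.8 and 90.2 TPM in buffer and 77.1, 75.3 and 94.4 TPM in treated libraries, beside at most 1.06 TPM of IGFL2, an insulin growth factor-like gene. PAX8-AS1, tail to tail with the transcription factor gene PAX8, had 73.3, 72.3 and 74.7 TPM in buffer and 65.5, 66.0 and 73.5 TPM in treated libraries. These 3 differed little between any of the libraries, and none passed the test (limma adjusted p = 0.46, 0.75 and 0.40).

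SVIL-AS1 differed most between replicates among members above 5 TPM. It was at 31.5, 35.5 and 88.4 TPM in buffer and 47.3, 61.1 and 25.2 TPM in treated libraries. Buffer replicate 3 was thus above every other library, and Amuc_0904 replicate 3 below all of them (limma adjusted p = 0.87). Its sense gene SVIL, which encodes the actin-binding protein supervillin, stayed between 3.66 and 4.25 TPM. GENCODE 29 types SVIL-AS1 as a transcribed unprocessed pseudogene, a kind of gene whose reads can be shared with a parent copy. The other members among the 8 most abundant were PITPNA-AS1 (mean 38.8 TPM), SLC9A3-AS1 (33.6), FGD5-AS1 (31.3) and MRPL20-AS1 (29.5). FGD5-AS1 is best known as a sponge of small RNAs, and MRPL20 encodes a protein of the mitochondrial ribosome. FGD5-AS1, MRPL20-AS1 and PITPNA-AS1 did not pass, with limma adjusted p from 0.38 to 0.60.

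Antisense RNAs were usually less abundant than their sense genes on the per-length TPM scale. Of the 264 pairs with both genes tested, the antisense RNA was above the sense gene in 38, and the sense gene was at a median 5.66 times the antisense level. A further 53 members were above a sense gene that was itself too low to be tested. The level rule nearly fixes this order, so it is not a result. CD27-AS1, for example, chosen after its values were seen, had 24.2 to 31.5 TPM beside a mean of 0.18 TPM of CD27, a lymphocyte receptor gene, in buffer libraries. Among the pairs with both genes tested, the highest ratios were those of ZNF433-AS1 (27.8 TPM, 28.0 times ZNF433), ELFN1-AS1 (27.2 TPM, 19.0 times ELFN1) and THAP9-AS1 (26.0 TPM, 15.1 times THAP9). ELFN1-AS1 is known as an RNA of colorectal tumours, and its exons share no base with the other strand. At the low end of the same pairs were MIF-AS1, SLC25A5-AS1 and VIM-AS1, at 1.03, 1.70 and 2.08 TPM. Their sense genes encode a cytokine, a mitochondrial ADP/ATP carrier and the filament protein vimentin, and were at 1449.7, 497 and 309 times the antisense level.

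**Figure D1:**
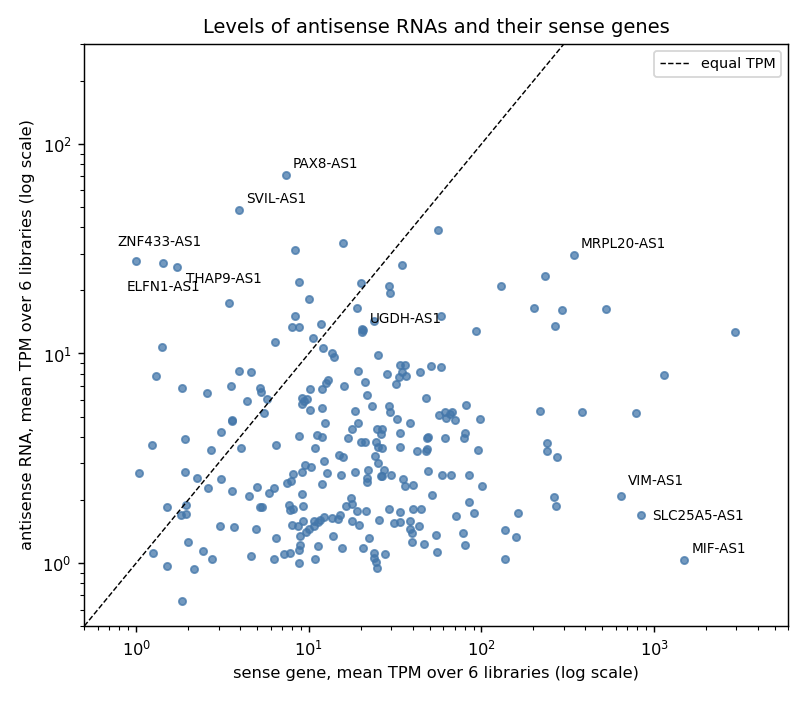
Mean TPM over 6 libraries of each antisense RNA (vertical, log scale) against its sense gene (horizontal, log scale) for the 264 pairs with both genes tested, one point per pair. The dashed line marks equal TPM, and 38 points lie above it.

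In the comparison of Amuc_0904 with buffer, 2 of the 324 members passed an adjusted p of 0.05 over all tested genes, 1 that rose (UGDH-AS1) and 1 that fell (PTOV1-AS2). That is 0.617% of the members, against 1.37% of all tested genes. By direction, 0.368% of all tested genes rose and 0.999% fell (53 and 144), a split that became 43 and 42 with libraries centred on their medians. The other named members did not pass, and their values are given as measured. Fold changes are given as the treated minus the buffer mean of log2(TPM + 1), so those of genes at a few TPM come out smaller than on the TPM scale. They ran from -1.31 to 1.95 over the members and were within 0.5 of 0 in 304 of them.

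UGDH-AS1 rose and was the member with the largest change. It is named after UGDH, the gene of the enzyme that makes UDP-glucuronate, a sugar donor for glucuronidation and for glycosaminoglycans. UGDH-AS1 was at 7.44, 1.95 and 5.82 TPM in buffer and 21.1, 16.5 and 24.5 TPM in treated libraries. Every treated library was above every buffer library. The gap was wider than the widest spread within a group on the TPM scale, but not on the log2 scale of the test. The group means were 5.07 ± 2.82 and 20.7 ± 4.01 TPM (SD, 3 libraries per group), a 4.09-fold difference (limma log2 fold change 1.95, SE 0.35, adjusted p = 0.041). UGDH itself was at 21.9, 21.3 and 19.9 TPM in buffer and 20.3, 18.8 and 21.4 TPM in treated libraries, ranges that overlap (log2 fold change -0.06, limma adjusted p = 0.74). The log2 ratio of antisense to sense, with 1 added to each TPM, went from -1.99 in buffer to 0.021 in treated libraries. For 3 libraries against 3, the exact two-sided permutation test of such a ratio cannot go below 0.10, and it gave 0.10 here.

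The annotated UGDH-AS1 gene (ENSG00000249348) lies on chromosome 4 from 39528019 to 39594707 on the plus strand of GRCh38, head to head with UGDH, and 10.5% of its exon bases lie opposite exons of another gene. RefSeq places the 2 starts 400 bases apart with the genes running away from each other. The UGDH-AS1 call ended without buffer replicate 3 (limma adjusted p = 0.067) or Amuc_0904 replicate 1, 2 or 3 (0.12, 0.081 and 0.11). After removal of the GC trend the log2 fold change was 1.95 with a limma adjusted p of 0.063.

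PTOV1-AS2 fell. Its sense gene PTOV1 was first described as overexpressed in prostate tumours. PTOV1-AS2 was at 12.1, 11.8 and 8.78 TPM in buffer and 6.01, 6.31 and 6.69 TPM in treated libraries, and the groups did not overlap. The means were 10.9 ± 1.84 and 6.34 ± 0.341 TPM, a log2 fold change of -0.69 (SE 0.13, limma adjusted p = 0.049). PTOV1 was also lower in every treated library, at 67.2, 73.9 and 59.3 TPM in buffer and 49.99, 50.7 and 46.6 TPM in treated libraries (log2 fold change -0.43, limma adjusted p = 0.055). PTOV1-AS2 (ENSG00000269352) lies inside PTOV1 on chromosome 19, from 49856970 to 49859289 on the minus strand, and 42.2% of its exon bases lie opposite exons. How far reads of PTOV1 enter its value was not tested.

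The PTOV1-AS2 call stood just under the threshold. It ended on leaving out buffer replicate 1 or 2 (limma adjusted p = 0.11 and 0.18) or Amuc_0904 replicate 1, 2 or 3 (0.15, 0.10 and 0.095), and stood on leaving out buffer replicate 3 (0.038). After removal of the GC trend its log2 fold change was -0.50 (limma adjusted p = 0.13).

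**Figure D2:**
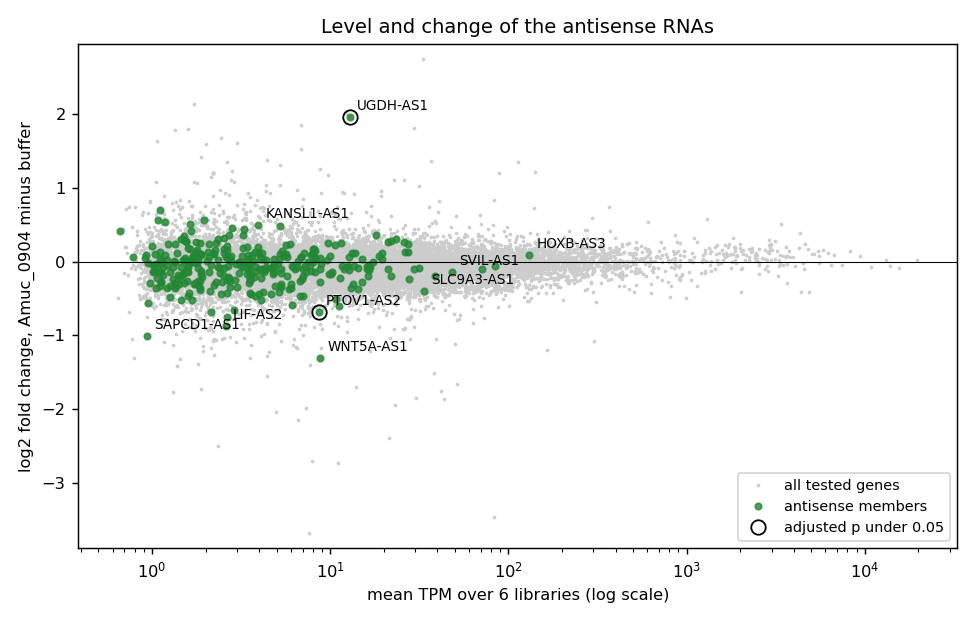
Log2 fold change (vertical, treated minus buffer) against mean TPM over 6 libraries (horizontal, log scale) for all tested genes in grey and the 324 antisense RNAs in green. Black rings mark UGDH-AS1 at 1.95 and PTOV1-AS2 at -0.69, the members with an adjusted p under 0.05.

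Several members without a call were lower in every treated library. Of all members 12.7% were, against 20.1% of all tested genes. WNT5A-AS1, LIF-AS2, ASB16-AS1, ZNF687-AS1 and HOXA-AS2 were picked for this, so their lack of overlap is not a result. WNT5A-AS1, inside the gene of the non-canonical Wnt ligand WNT5A, was at 11.5, 17.8 and 9.51 TPM in buffer and 6.90, 3.98 and 3.17 TPM in treated libraries. Its means were 12.95 ± 4.34 and 4.68 ± 1.96 TPM, a log2 fold change of -1.31 (SE 0.27, limma adjusted p = 0.058), while WNT5A was at 32.1 and 35.2 TPM. No exon base of WNT5A-AS1 lies opposite an exon. Its limma adjusted p was 0.049 without Amuc_0904 replicate 1, and from 0.072 to 0.19 on leaving out any other single library. After removal of the GC trend it was 0.13 with a log2 fold change of -1.05.

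LIF-AS2, head to head with the cytokine gene LIF, was at 3.63, 4.76 and 2.64 TPM in buffer and 1.25, 1.64 and 1.64 TPM in treated libraries. The groups did not overlap (limma log2 fold change -0.88, SE 0.19, adjusted p = 0.060), and LIF was at 27.6 and 24.9 TPM. ASB16-AS1 was at 12.5, 14.3 and 11.6 TPM in buffer and 8.87, 7.70 and 9.48 TPM in treated libraries (limma log2 fold change -0.51, adjusted p = 0.066). ASB16, of a family of ubiquitin ligase adaptors, was at 1.53 and 1.30 TPM, well below its antisense RNA.

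SLC9A3-AS1 lies inside SLC9A3, which encodes the sodium/proton exchanger NHE3 of the intestinal brush border. It was at 40.3, 40.5 and 34.2 TPM in buffer and 25.2, 31.3 and 30.2 TPM in treated libraries (limma log2 fold change -0.40, adjusted p = 0.094), and SLC9A3 at 17.2 and 14.4 TPM. ZNF687-AS1 (3.75 and 2.02 TPM) and HOXA-AS2, an RNA of the HOXA cluster (4.97 and 3.17 TPM), had log2 fold changes of -0.66 and -0.52 (limma adjusted p = 0.10 and 0.11). SLC9A3-AS1, named for its level, was also lower in all 3 treated libraries than in any buffer library. Besides HOXB-AS3, the other HOX cluster members did not pass either: HOXB-AS1, HOXB-AS2 and HOXC-AS2 had log2 fold changes of -0.0076, -0.24 and -0.29, and HOXA-AS3 of 0.11.

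Fewer members were higher in every treated library, 4.32% against 7.00% of all tested genes. KANSL1-AS1, ZNF232-AS1, PPP1R14B-AS1 and THUMPD3-AS1 were picked for this, so their lack of overlap is not a result. KANSL1-AS1, inside KANSL1, which encodes a subunit of a histone acetyltransferase complex, was at 2.82, 3.21 and 3.29 TPM in buffer and 4.78, 4.47 and 5.09 TPM in treated libraries. Its groups did not overlap and lay over 1 TPM apart (limma log2 fold change 0.49, SE 0.12, adjusted p = 0.076). KANSL1 was at 18.5 and 15.03 TPM. ZNF232-AS1 was at 17.5, 16.3 and 13.7 TPM in buffer and 20.4, 22.2 and 18.9 TPM in treated libraries (limma log2 fold change 0.36, adjusted p = 0.12), beside 10.01 and 9.92 TPM of the zinc finger gene ZNF232. PPP1R14B-AS1 and THUMPD3-AS1 had log2 fold changes of 0.31 and 0.27 (limma adjusted p = 0.25 and 0.17). Without buffer replicate 1 that of PPP1R14B-AS1 was 0.15. PPP1R14B encodes an inhibitor of protein phosphatase 1.

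**Figure D3:**
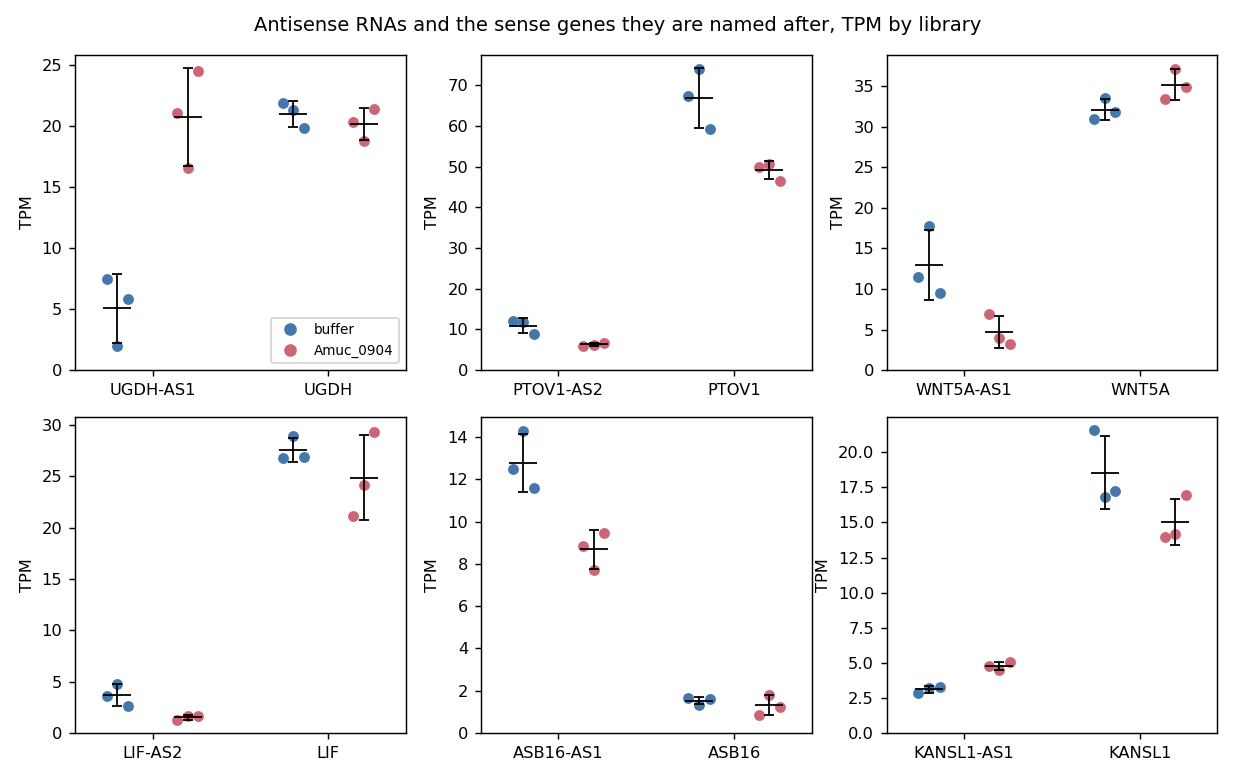
TPM (vertical, from 0) of 6 antisense RNAs and their sense genes in the 3 buffer (blue) and 3 Amuc_0904 (red) libraries, one point per library, with the group mean and SD in black. UGDH-AS1 was at 1.95 to 7.44 TPM in buffer and 16.5 to 24.5 TPM in treated libraries, while UGDH overlapped between the groups.

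Across the members, more lay below 0 than above it, as among all tested genes. The median log2 fold change was -0.07 for the members and -0.06 for all tested genes, and 60.5% and 62.5% had a negative value. Every treated library was above every buffer library in 14 members (4.32%, against 7.00% of all tested genes) and below in 41 (12.7%, against 20.1%). An unadjusted p under 0.05 was seen in 9 higher and 28 lower members, where the shares of all tested genes were 4.49% and 16.3%. With libraries centred on their medians these counts were 18 higher and 17 lower, and with quantile normalization 17 and 17. Then 149 and 151 members lay below 0, in place of 196. These shares are also given by level, whose part in the difference was not tested. Among members with a mean of 2 to 5 TPM, 2.78% were above and 11.1% below without overlap, against 5.48% and 15.9% of all tested genes at that level. Under 2 TPM the shares were 2.86% and 14.3% of the members and 4.94% and 12.8% of all tested genes, and from 5 to 20 TPM 4.30% and 13.98% against 5.74% and 20.2%. Of the 18 members over 20 TPM, 22.2% were above and 5.56% below, against 9.54% and 24.4%. The median SE was 0.16 for the members and 0.11 for all tested genes.

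For 4 members the level rule was met through a single group, so they had to differ. They are among the 41 members below and 14 above without overlap, and the shares of all tested genes include such genes too. FOXD2-AS1, RARA-AS1 and SAPCD1-AS1 reached 1 TPM in all buffer and no treated library, and SMIM2-AS1 in all treated and no buffer library. SAPCD1-AS1 was at 1.05, 1.97 and 1.73 TPM in buffer and 0.15 and 0.75 TPM in Amuc_0904 replicates 1 and 2, and was listed at 0 in replicate 3. Of its exon bases, 89.2% lie opposite exons of another gene. None of the 4 passed (limma adjusted p from 0.082 to 0.44).

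Other noncoding RNA classes were taken by symbol. Of 83 tested divergent transcripts (symbols ending in -DT) 1 rose and 0 fell, with a median log2 fold change of -0.06, and 3 had an unadjusted p under 0.05 above 0 and 5 below. Of 191 tested LINC genes, intergenic RNAs, 0 rose and 1 fell, with a median of -0.04, and 9 above and 18 below 0 had an unadjusted p under 0.05. Of 5 intronic transcripts (symbols ending in -IT), 0 passed in limma, with a median of -0.13 and no unadjusted p under 0.05. The single overlapping transcript (-OT) tested had a log2 fold change of -0.35 and did not pass. Enzymes that remove or process antisense RNA were also counted. Of 20 nuclear RNA decay genes, chiefly exosome subunits and their helicase and adaptor proteins, 0 passed in limma. Their median was 0.08, and 2 had an unadjusted p under 0.05, both above 0. EXOSC9, an exosome subunit, went from 33.7 to 39.1 TPM (limma adjusted p = 0.13). Of 12 genes for double-stranded RNA binding and processing, 0 passed in limma, with a median of -0.11 and an unadjusted p under 0.05 in 1 above and 3 below 0. The editing enzyme gene ADAR was at 37.9 and 35.6 TPM (limma adjusted p = 0.59).

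The change of the sense gene was compared with that of its antisense RNA in the 264 pairs with both tested. The median log2 fold change was -0.07 for the antisense and -0.08 for the sense genes, and the median change of their log2 ratio was -0.018. The ratio did not overlap between groups in 44 pairs, 22 in each direction. No such count was made for other pairs of genes, so it is not a result about antisense pairs. Of the 262 sense genes tested 1 passed, while 1.37% of all tested genes did. It was MYLK, the gene of myosin light chain kinase, which rose from 2.21 to 4.92 TPM (log2 fold change 0.87, limma adjusted p = 0.044). Whether the calls of MYLK and CDH1 hold with 1 library left out is not shown here. MYLK-AS1, tail to tail with it, was at 4.79 and 4.87 TPM, with a log2 fold change of 0.029 (limma adjusted p = 0.93).

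Across pairs, log2 fold changes of antisense and sense had the same sign in 173 of 264 (65.5%), with Pearson's r = 0.25 and Spearman's rho = 0.36. Both values of a pair come from the same 6 libraries, so this describes the pairs and is no test. Of all members 60.5% and of their tested sense genes 65.3% lay below 0, so signs can match in many pairs without a link. The pairs were also split by the bases shared, and the difference between the classes was not tested. In the 51 pairs whose antisense RNA shared no exon base with the other strand, r was -0.00054 and rho 0.10, and 58.8% had the same sign. With up to 25% of bases shared, rho was 0.39 over 137 pairs, and with over 25% it was 0.48 over 76 pairs, of which 69.7% had the same sign. The sense genes of pairs with no shared base were also lower, with a median of 12.2 TPM against 20.3 and 19.2 TPM. The part of unstranded reads in this was not tested. By geometry, rho was 0.62 over 13 pairs with the antisense RNA containing the sense gene, of which 92.3% had the same sign. It was 0.43 over 53 tail to tail pairs, 0.39 over 126 head to head pairs, 0.14 over 43 pairs with the antisense RNA inside the sense gene, and 0.11 over 27 divergent pairs. Signs matched in 58.1% of 93 pairs with RefSeq starts within 1000 bases and in 73.8% of 84 pairs with starts further apart.

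**Figure D4:**
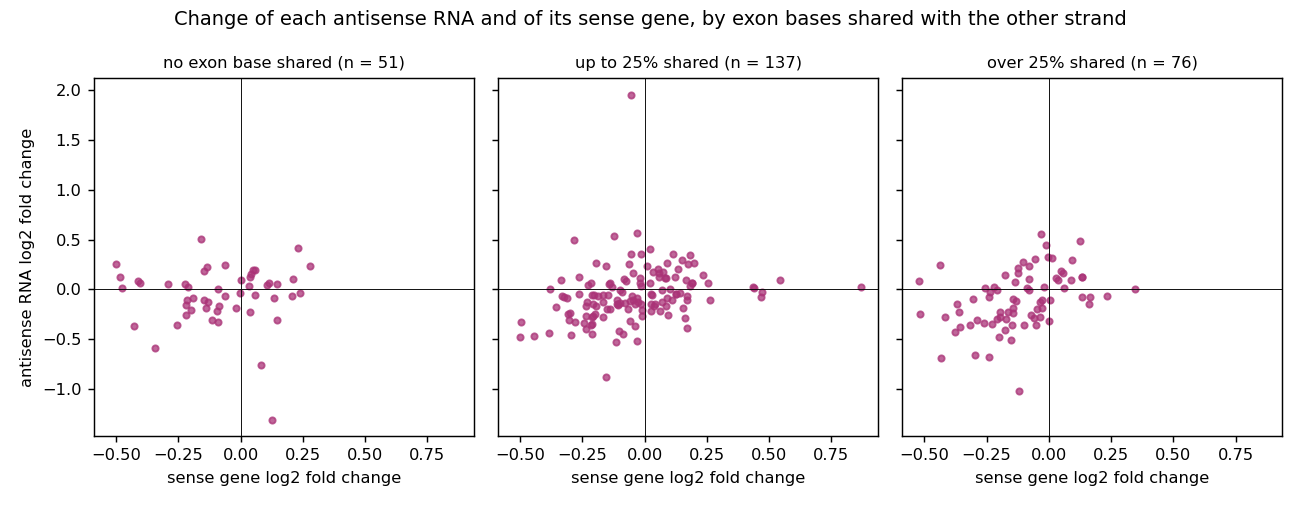
Log2 fold change of each antisense RNA (vertical) against that of its sense gene (horizontal), one point per pair, split by the share of antisense exon bases that lie opposite exons of another gene. Spearman's rho was 0.10, 0.39 and 0.48 from left to right.

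Members also differed by base composition. Over the 80 members whose longest transcript had under 45% GC the median log2 fold change was -0.0093, over the 157 with 45% to 55% it was -0.07, and over the 87 with 55% or more it was -0.12. For all tested genes the medians of these classes were 0.026, -0.07 and -0.18. In the class of 55% or more, 22 members lay below without overlap and 1 above. Those are 25.3% and 1.15% of the members there, against 37.8% and 2.74% of all tested genes of that class. Under 45% GC 4 members lay below and 7 above (5% and 8.75%, against 5.01% and 10.8% of all tested genes). WNT5A-AS1, SLC9A3-AS1, PTOV1-AS2, LIF-AS2 and ASB16-AS1 had 67.6%, 63.7%, 61.2%, 60.3% and 58.6% GC. UGDH-AS1, ZNF232-AS1 and KANSL1-AS1 had 42.8%, 42.7% and 40.4%. These are only some of the named members, picked after their values were seen, and the part of GC content in their changes was not tested. Of those not listed, ELFN1-AS1, PPP1R14B-AS1 and THUMPD3-AS1 had log2 fold changes of 0.24, 0.31 and 0.27. With the GC trend removed these were 0.42, 0.42 and 0.27. ZNF687-AS1 and HOXA-AS2 went from -0.66 and -0.52 to -0.56 and -0.40. After removal of each library's GC trend the class medians of the members were -0.025, 0.013 and 0.016, and 163 of 324 members lay below 0 in place of 196. No member passed in limma then (0 of 324), with an unadjusted p under 0.05 in 24 above and 16 below 0.

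**Figure D5:**
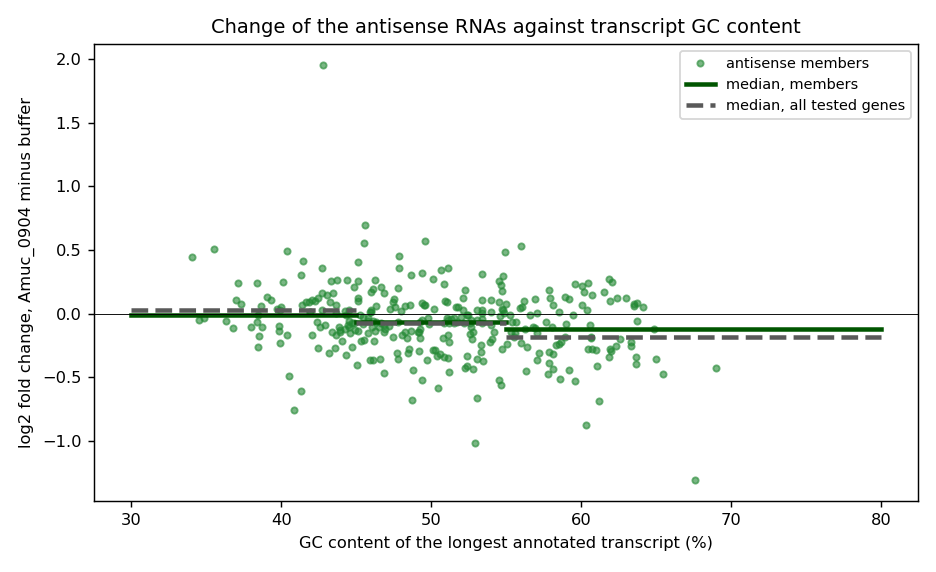
Log2 fold change of the 324 antisense RNAs (vertical) against the GC content of their longest annotated transcript (horizontal, percent). Solid lines give the members' medians in 3 GC classes (-0.0093, -0.07 and -0.12) and dashed lines those of all tested genes (0.026, -0.07 and -0.18).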

How the data were processed

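Per the labels and the series' design text, RNA of SW480 cells was sequenced on an Illumina NovaSeq instrument, and the authors deposited 1 gene table of TPM values made with RSEM. The submitters' processing notes name further tools, among them HISAT2 and StringTie, without versions or roles, and a mouse build (GRCm38.p6), although the identifiers are human Ensembl genes. The aligner settings and strand protocol are not given in the sources used here. TPM keep no read number, so no counting interval is given.

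Genes with at least 1 TPM in at least 3 libraries (14421) were fitted as log2(TPM + 1) with limma 3.58.1 in R 4.3.3 (trend, two-sided), with Benjamini-Hochberg adjustment over all of them and a threshold of 0.05. The workflow was tested on simulated data. Positions, exons and GC content are from GENCODE 29, which held all 324 members by identifier. Of these, 47 have another symbol there. RefSeq windows were matched by symbol, using the first window listed for each gene. A sense gene is the symbol before -AS.

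Named members were those past the threshold, the 8 most abundant, up to 6 in each direction with the largest change among those with a mean of at least 2 TPM and no overlap, and the 3 highest and 3 lowest antisense to sense ratios. That gave 26, of which 1 is not reported here. Sense genes were named with their member or if past the threshold, and other members and decay genes were chosen after their values were seen. The members and lists were chosen with earlier results of these data known. Alternatives were a pseudocount of 0.1, other level filters, leaving out each library, a block for the replicate number, median centring, quantile normalization, removal of the GC trend (loess, span 0.3), rescaling without ribosomal protein and mitochondrially encoded genes, and a threshold of 0.01. Python 3.11.15 and matplotlib 3.10.9 served for counts and figures.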

Additional observations from a re-analysis of the deposited data

How the results depend on the processing

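Calls among the antisense RNAs depended on the processing. For the 2 that passed the groups did not overlap, so most alternatives, such as leaving out a library, could not change the direction. That it stayed the same is thus no support. UGDH-AS1 had a positive and PTOV1-AS2 a negative log2 fold change in all 14 alternative fits, with limma adjusted p under 0.05 in 4 and 3 of them (range 0.022 to 0.18 and 0.032 to 0.18). From 2 members called, the number went to 5 among genes with at least 1 TPM in all 6 libraries (with WNT5A-AS1, LIF-AS2 and ASB16-AS1) and to 1 with a pseudocount of 0.1. It was 0 after removal of the GC trend, with median centring, with quantile normalization, without a level filter, without ribosomal protein and mitochondrial genes, and at a threshold of 0.01. The numbers with an unadjusted p under 0.05 in limma were 40, 35, 34, 64 of 997 and 43 of 376 in the first 5 of these and 37 at the last. Leaving out 1 library gave 0 to 1. Over all genes the 197 calls (53 higher, 144 lower) became 117 after GC removal (77 higher, 40 lower), 85 with centring (43 and 42), 102 with quantile normalization (46 and 56), 393 with at least 1 TPM in all libraries, 9 without a filter and 29 at 0.01. They were 35 (without buffer replicate 2) to 112 (without Amuc_0904 replicate 3) with 1 library left out. The members' median of -0.07 became -0.0025 after GC removal, 0.013 with centring, 0.011 with quantile normalization and -0.014 without a filter, and ranged from -0.075 to -0.042 with 1 library left out. The median change of the antisense to sense ratio was -0.018, 0.010 with quantile normalization, and -0.010 to 0.026 with 1 library left out.

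Replicate numbers are shared between the groups but the labels tie nothing to them. Deviations of same-numbered libraries correlated at -0.029, 0.075 and -0.094, and not every library correlated best with its own number. With the replicate number as a block, 80 genes and 1 member (UGDH-AS1, limma adjusted p = 0.025) were called. A limit of 0.5 TPM would give 433 members, 2 TPM 221, and 1 TPM in all libraries 251.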
